A study of Mus musculus with 29 samples.

Results

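Interleukin-10 (IL-10) and interleukin-6 (IL-6) were compared by what each changed in macrophages grown from mouse bone marrow. The comparison takes 16 of the 29 arrays of the series: 3 arrays of macrophages with IL-10 (replicates 1 to 3) and 3 unstimulated arrays (replicates 6 to 8), and 5 arrays with IL-6 (replicates 1 to 5) and 5 unstimulated arrays (replicates 1 to 5). All cells came from wild-type C57BL/6 mice 8 weeks old, and grew for 7 days with 10 ng/ml of CSF-1, the growth factor that makes marrow cells into macrophages in Teflon bags. They then had 24 h in suspension with CSF-1 at the same dose and 10 ng/ml of the cytokine, or with CSF-1 alone. That the unstimulated replicates 6 to 8 are the controls of the IL-10 arrays, and replicates 1 to 5 those of the IL-6 arrays, was read from the replicate numbers, since the labels do not state sets of arrays. The labels also do not say whether arrays of a group came from separate mice or cultures, so p-values measure only the spread between arrays, which may be technical. The IL-10 effect is the mean log2 level with IL-10 minus that of its controls, the IL-6 effect is defined likewise, and the difference of effects is the IL-10 effect minus the IL-6 effect.

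IL-10 binds the receptor chains Il10ra and Il10rb, which carry the kinases JAK1 and TYK2. IL-6 binds Il6ra and the signalling chain gp130 (Il6st), which carries JAK1 and JAK2. Both receptors activate the transcription factor STAT3, and the 2 cytokines are known for different actions on macrophages, IL-10 for damping inflammatory gene expression and IL-6 for acting with other inflammatory signals. SOCS3, whose gene is a target of STAT3, binds gp130 and limits IL-6 signalling but does not bind the IL-10 receptor. The question that the comparison addresses is which gene responses the 2 cytokines share after 24 h and where they part.

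The levels are log2 intensities of microarray probe sets. Of 12394 genes on the array, 7154 were tested, those with at least 3 of the 29 arrays above the median of all values (log2 6.99). A gene was called in a comparison at an adjusted p under 0.05 (limma, Benjamini-Hochberg over the genes tested). Correlations between the 16 arrays lay between 0.989 and 0.998, and no pair of arrays was identical. Of 9 macrophage markers measured, 9 had a group mean at or above the median of all values in every group. So did 6 of 11 neutrophil, 3 of 8 dendritic cell, 2 of 12 B-lineage and 2 of 11 erythroid and megakaryocyte markers. Of the markers of T and NK cells (10) and of fibroblasts (12), 0 had such a mean in any group. The mean level of the neutrophil markers was 7.89 to 8.13 with IL-10 and 7.76 to 8.01 in its controls, and 7.84 to 8.05 with IL-6 and 7.74 to 7.97 in its controls. The unstimulated replicates 6 to 8 themselves differed from replicates 1 to 5 in 1366 genes (19.1% of those tested), 878 higher (12.3%) and 488 lower (6.82%) in replicates 6 to 8, 23 of them by at least 2-fold. Marker genes of B-lineage cells differed in mean level between the sets: it was 6.24 to 6.33 with IL-10 and 6.31 to 6.32 in its controls, and 6.78 to 7.40 with IL-6 and 6.79 to 7.35 in its controls. Of that list Blnk, an adaptor of B cell receptor signalling, fell with both (-0.58 with IL-10 and -0.48 with IL-6). Blnk does not stand for the list: the median effect over its 6 genes tested was -0.10 with IL-10 and 0.06 with IL-6. The log2 signal of the 3' probe set of beta-actin minus the 5' one, a measure of RNA integrity, was 0.34 ± 0.03 with IL-10 and 0.44 ± 0.07 in its controls (SD, n = 3 each), and 0.25 ± 0.02 with IL-6 and 0.32 ± 0.01 in its controls (SD, n = 5 each). The part of these shifts in the results was not tested. IL-10 replicate 1 stood apart from the other 2 IL-10 arrays in cell cycle genes, and results that rest on it are given with and without it. Each cytokine lies in its own set, so a direct difference between IL-10 and IL-6 arrays cannot be told apart from a difference between sets. Tests below are of effects against each set's own controls. In the difference of effects, a response that depends on the set still cannot be told apart from a difference between the cytokines.

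Both cytokines changed a large part of the macrophage transcriptome, and mostly the same way. With IL-10, 2017 genes (28.2% of those tested) were called, 880 higher (12.3%) and 1137 lower (15.9%), and with IL-6 2527 genes (35.3%), 1160 higher (16.2%) and 1367 lower (19.1%). Of these, 770 rose with both cytokines (10.8% of the genes tested), 936 fell with both (13.1%), and 1 gene, Cmpk2, moved in opposite directions. The genes called the same way with both made up 84.6% of the IL-10 calls and 67.5% of the IL-6 calls. The shares over all genes tested are those to set beside the counts of each gene list below. At 2-fold or more, 119 genes were called with IL-10 (85 higher, 34 lower) and 115 with IL-6 (83 higher, 32 lower), and 96 of them with both in the same direction, 70 higher and 26 lower. In the difference of effects 7 genes were called (0.0978%), 0 higher and 7 lower with IL-10, against 236 genes (3.30%) at an unadjusted p under 0.05, 92 higher and 144 lower. For 6892 of the genes tested (96.3%) the 95% interval of the difference lay within 1.5-fold in either direction, and for 7112 (99.4%) within 2-fold.

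The sizes of the effects were close as well. Of the 1706 genes called the same way with both cytokines, 1175 (68.9%) had the larger change with IL-10, and the median ratio of the log2 effects, IL-10 over IL-6, was 1.11. This share leans on which genes were called, because with 3 arrays against 3 an effect had to be larger to be called (median SE 0.07 for the IL-10 effect and 0.05 for the IL-6 effect). Of all genes called with IL-10, 73.7% had the larger size with IL-10, whatever the sign with IL-6. Of all genes called with IL-6, 50.1% had the same sign and a larger size with IL-10. The 2 shares are not defined alike, and they lean opposite ways. Among the 96 genes past 2-fold with both, 73 were larger with IL-10, 0 were called in the difference, and for 94 of the 96 the interval of the difference stayed within 2-fold.

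**Figure D1:**
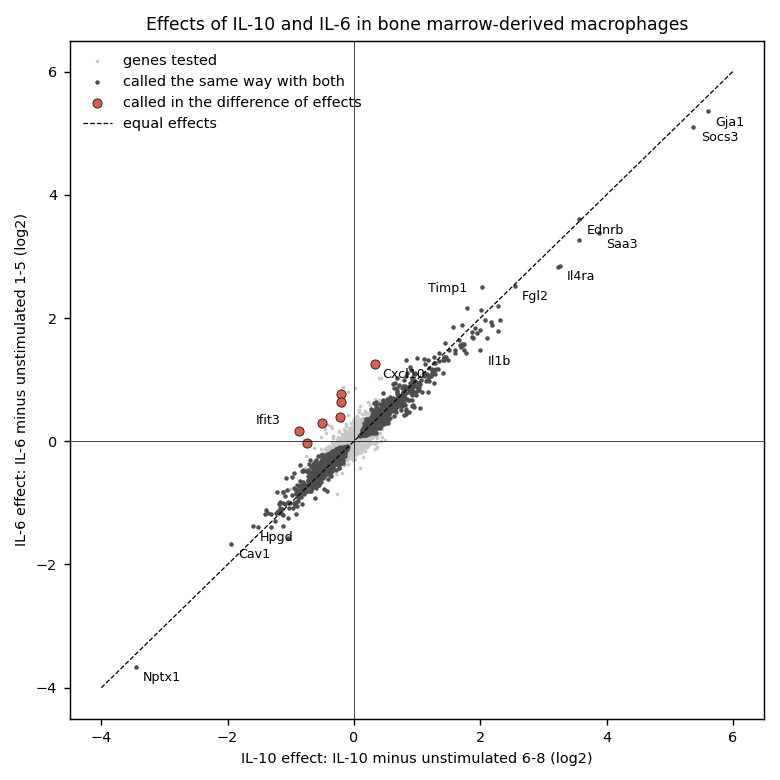
Effect of each cytokine on every gene tested. The horizontal axis is the IL-10 effect and the vertical axis the IL-6 effect (log2), each point is 1 of 7154 genes, the dashed line marks equal effects, dark points are the 1706 genes called the same way with both, and red points the 7 genes called in the difference of effects. The large responses from Gja1 at the upper right to Nptx1 at the lower left lie along the line, and all 7 red points lie above it.

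Of 14 genes of receptor chains, kinases and their regulators that were tested, 3 rose and 0 fell with IL-10, and 6 rose and 0 fell with IL-6, where 12.3% of all genes tested rose with IL-10 and 16.2% with IL-6. Il10ra and Il10rb, the chains of the IL-10 receptor, and Il6ra, the ligand-binding chain of the IL-6 receptor, were called with neither cytokine, with IL-10 effects of -0.02, -0.0033 and 0.0016 and IL-6 effects of -0.05, 0.04 and -0.07. Il6st, the gp130 chain, had an effect of 0.16 ± 0.06 (SE, adjusted p = 0.0556) with IL-10 and of 0.13 ± 0.05 (SE, adjusted p = 0.0447) with IL-6, past the threshold with IL-6 alone, and its difference of effects was 0.04 ± 0.08 (SE, adjusted p = 0.999). Neither side of the threshold held for Il6st: the IL-6 call was lost without IL-6 replicate 1, 2 or 3 or unstimulated replicate 3, 4 or 5 (limma adjusted p from 0.0862 to 0.163), and the IL-10 effect was called without IL-6 replicate 1 or 5 or unstimulated replicate 1, 5 or 7 (limma adjusted p from 0.0351 to 0.0485). Lifr, the receptor chain that pairs with gp130 for leukaemia inhibitory factor, rose with both, by 2.31 ± 0.16 (SE, adjusted p = 6.44e-12) with IL-10 and 1.97 ± 0.12 (SE, adjusted p = 5.12e-13) with IL-6. Jak3, a kinase of the receptors that share the common gamma chain, also rose with both (0.92 with IL-10 and 0.77 with IL-6). Its controls lay under the median of all values (means 6.35 and 6.30), as did IL-6 replicate 2 (6.96), which limits what a fold means there. Jak2 rose with both by a smaller step (0.17 with IL-10 and 0.16 with IL-6). The IL-10 call of Jak2 was lost without IL-10 replicate 2 or 3 or unstimulated replicate 8 (limma adjusted p from 0.0551 to 0.119).

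Stat3 itself rose with both cytokines. Stat3 had log2 levels of 10.81, 11.0 and 10.94 with IL-10, against 9.75, 9.89 and 9.71 in unstimulated replicates 6 to 8. Its levels were 10.9, 10.82, 10.79, 10.79 and 10.87 with IL-6, against 9.93, 9.83, 9.86, 9.9 and 9.74 in unstimulated replicates 1 to 5. All stimulated arrays lay above all controls in each set. Stimulated and control arrays did not overlap in 33.9% of all genes tested in the IL-10 set and in 28.2% in the IL-6 set. The IL-10 effect was 1.13 ± 0.07 (SE, adjusted p = 1.4e-12), the IL-6 effect 0.98 ± 0.06 (SE, adjusted p = 6.91e-14) and the difference 0.15 ± 0.09 (SE, adjusted p = 0.999). Among the 5 STAT genes tested, Stat3 was the one called with IL-10, while with IL-6 3 rose and 1 fell, and 0 were called in the difference.

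Socs3, the gene of the feedback inhibitor that acts on gp130, had one of the largest responses to each cytokine. Socs3 had log2 levels of 11.82, 12.22 and 12.36 with IL-10, against 6.99, 6.6 and 6.66 in unstimulated replicates 6 to 8. The IL-6 set had levels of 11.4, 11.44, 11.35, 11.48 and 11.51 with IL-6, against 6.62, 6.32, 6.26, 6.34 and 6.12 in unstimulated replicates 1 to 5. The controls sat near or below the median of all values, which is close to background, and the stimulated arrays were among the brighter signals. The IL-10 effect was 5.38 ± 0.13 (SE, adjusted p = 8.17e-22), a 41.5-fold change, and the IL-6 effect 5.11 ± 0.1 (SE, adjusted p = 4.33e-24), a 34.4-fold change. The controls of IL-10 were higher than those of IL-6 by 0.42 (adjusted p = 0.00896), and the difference of effects was 0.27 ± 0.16 (SE, adjusted p = 0.999) with a 95% interval of -0.05 to 0.6. In the other 6 SOCS-family genes tested the changes were under 1.5-fold: with IL-10 2 of them rose, Socs1 (0.41) and Socs2 (0.37), both genes at levels under the median of all values, while with IL-6 Socs6 rose (0.18) and Socs5 fell (-0.18), and 0 were called in the difference. The IL-10 calls were lost without IL-10 replicate 1 or 2 or unstimulated replicate 8 for Socs1 and without any 1 of the 3 IL-10 arrays or unstimulated replicate 6 for Socs2, and the IL-6 call of Socs6 without unstimulated replicate 5, while without unstimulated replicate 7 Socs5 was called lower with IL-10 too. The naming rule does not take these 4 genes, which were picked with their values known.

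STAT3 binds DNA as a dimer at sites of the form TTCNNNGAA, where N is any base, a form that reads the same on both strands. RefSeq promoters (build GRCm38.p6, 250 bases before to 50 after a gene's start) were at hand for 5917 of the genes tested, and 8.04% of these genes held such a match in at least 1 promoter (6.56% of the 7635 promoters). The share was 9.79% for genes higher with both cytokines, 7.27% for genes lower with both, and 8 of 59 (13.6%) for genes at least 2-fold higher with both. The tighter form TTCCNGGAA, contained in the first, was held by 1.4% of all these genes and 2.21% of those higher with both. Shown are the stretches around the match for Socs3 (chr11:117969472-117969560, minus strand) and for Fcgr1, the high-affinity receptor for IgG (chr3:96294030-96294118, minus strand), as 2 strongly induced genes that hold one, read 5′ to 3′ along the gene's strand with the match in capitals. A match is a description of these letters only.
Socs3: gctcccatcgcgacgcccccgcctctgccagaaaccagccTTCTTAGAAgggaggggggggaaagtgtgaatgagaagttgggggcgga
Fcgr1: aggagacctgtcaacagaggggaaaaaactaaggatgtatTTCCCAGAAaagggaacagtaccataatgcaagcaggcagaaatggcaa

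The known STAT3-responsive genes moved together with both cytokines. Of 35 tested, 25 rose and 3 fell with IL-10, 25 rose and 3 fell with IL-6, and these were shared: 25 rose with both and 3 fell with both, against 10.8% and 13.1% of all genes tested. Their median effect was 0.86 with IL-10 and 0.80 with IL-6, beside medians of -0.02 and -0.02 over all genes. The list was drawn up with earlier results of these arrays known, so its direction is not independent evidence. Gja1, which encodes the gap junction protein connexin 43, was bright with both cytokines and near background in both sets of controls. Gja1 had log2 levels of 9.98, 10.38 and 10.54 with IL-10, against 4.64, 4.61 and 4.83 in unstimulated replicates 6 to 8. The IL-6 set had 9.92, 9.9, 9.9, 9.91 and 10.54 with IL-6, against 4.25, 5.04, 4.74, 4.38 and 4.96 in unstimulated replicates 1 to 5. No stimulated array came near a control, and the IL-10 effect was 5.6 ± 0.19 (SE, adjusted p = 6.08e-18) and the IL-6 effect 5.36 ± 0.15 (SE, adjusted p = 2.9e-20). The controls lay far below the median of all values, which limits what a fold means there.

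Further shared responders were the endothelin receptor gene Ednrb (3.57 with IL-10 and 3.6 with IL-6), the acute-phase gene Saa3 (3.88 with IL-10 and 3.38 with IL-6), and Il4ra, the IL-4 receptor chain (3.26 with IL-10 and 2.85 with IL-6). Fgl2, a secreted immunoregulatory protein of the fibrinogen family, rose by 2.54 with IL-10 and 2.52 with IL-6, and Nrcam, a neuronal-type adhesion molecule, by 2.28 with IL-10 and 2.2 with IL-6. Controls of Ednrb and Nrcam lay under the median of all values, which limits what a fold means there. Nrcam was also under it in IL-10 replicate 3 (6.70) and IL-6 replicate 4 (6.54). Saa3 and Il4ra had larger estimates with IL-10, but their differences of 0.5 ± 0.35 (SE, adjusted p = 0.999) and 0.41 ± 0.18 (SE, adjusted p = 0.999) were not called. For Saa3 the interval ran from -0.21 to 1.21, so a log2 difference as large as its upper end was not resolved. Timp1, the inhibitor of matrix metalloproteases, was on the other side: it rose by 2.03 ± 0.12 (SE, adjusted p = 7.04e-13) with IL-10 and by 2.51 ± 0.1 (SE, adjusted p = 3.27e-17) with IL-6, a difference of -0.48 ± 0.16 (SE, adjusted p = 0.938).

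**Figure D2:**
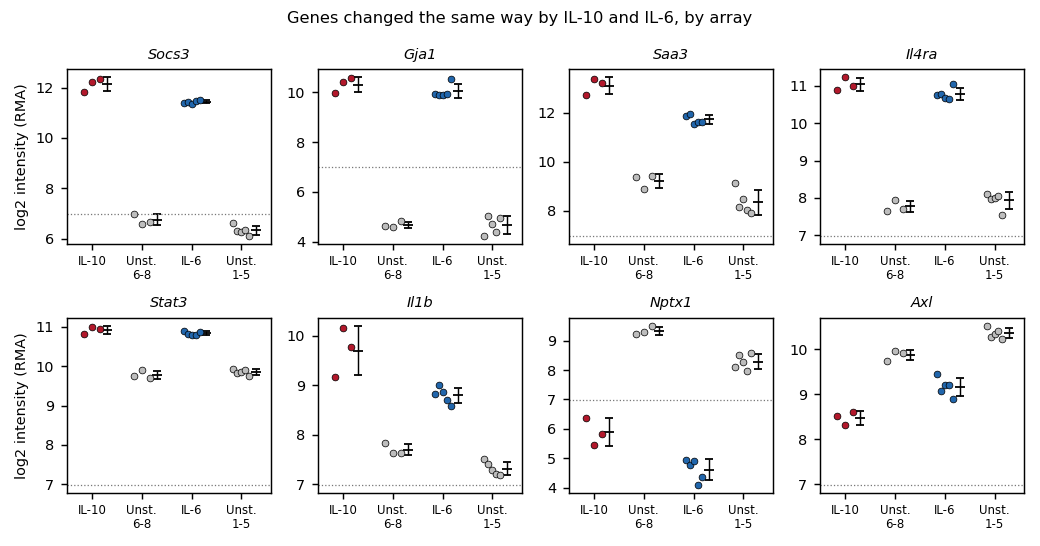
Levels of 8 genes that moved the same way with both cytokines. Each point is 1 array, the vertical axis is the log2 intensity, bars are the mean ± SD of the group (n = 3 for IL-10 and unstimulated replicates 6 to 8, n = 5 for IL-6 and unstimulated replicates 1 to 5), and the dotted line is the median of all values. In each panel the stimulated arrays are apart from their own controls, with Nptx1 and Axl lower and the other 6 genes higher.

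Genes linked to the anti-inflammatory action of IL-10 rose with IL-6 too. Of 21 tested, 14 rose and 1 fell with IL-10, and 15 rose and 3 fell with IL-6, with 14 higher with both and medians of 0.50 and 0.52. Bcl3, a nuclear inhibitor of NF-kappaB (1.43 with IL-10 and 1.32 with IL-6), Nfil3, a bZIP repressor (1.87 with IL-10 and 1.69 with IL-6), and Etv3, an ETS-family repressor (0.86 with IL-10 and 0.67 with IL-6), rose with both. Il1rn, the IL-1 receptor antagonist, rose by 0.65 with IL-10 and 0.94 with IL-6, and Il10 itself by 1.0 ± 0.12 (SE, adjusted p = 1.46e-07) and 1.36 ± 0.09 (SE, adjusted p = 2.22e-12). The difference for Il10 was -0.36 ± 0.15 (SE, adjusted p = 0.999), not called, with an interval of -0.66 to -0.05. Mean levels of Il10 were close with the cytokines, 7.93 with IL-10 and 7.86 with IL-6. In their controls they were 6.93 and 6.51, a gap of 0.42, and both under the median of all values. Dusp2, a phosphatase of MAP kinases, came nearest to a call on the IL-10 side: its effect was 0.14 ± 0.07 (SE, adjusted p = 0.123) with IL-10 and -0.26 ± 0.05 (SE, adjusted p = 0.000335) with IL-6, a difference of 0.4 ± 0.09 (SE, adjusted p = 0.0794). With the replicate number of the first set as a fixed block the difference of Dusp2 was called, higher with IL-10 (limma adjusted p = 0.0460). With the number as a random block the difference was not called (limma adjusted p = 0.0747). Dusp2 is not taken by the naming rule and was picked with its values known.

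The inflammatory genes that were tested rose more often than they fell with either cytokine, in cells to which, per the labels, no inflammatory stimulus was added. Of 24 classical ones on the array 13 passed the filter on level. Il6, Il12b, Nos2 and Ptgs2 were among those that did not. Of 13 classical inflammatory cytokine and enzyme genes tested, 5 rose and 2 fell with IL-10, and 6 rose and 1 fell with IL-6, with medians of 0.16 and 0.26. Of all genes tested, 12.3% rose and 15.9% fell with IL-10, and 16.2% rose and 19.1% fell with IL-6. Il1b, the gene of the cytokine IL-1 beta, rose with both. Il1b had log2 levels of 9.18, 10.15 and 9.78 with IL-10, against 7.83, 7.64 and 7.63 in unstimulated replicates 6 to 8. In the IL-6 set they were 8.83, 9.0, 8.86, 8.7 and 8.58 with IL-6, against 7.5, 7.41, 7.29, 7.2 and 7.19 in unstimulated replicates 1 to 5. Every stimulated array lay above its controls, and IL-10 replicate 1 was the lowest of its group. The effects were 2.0 ± 0.17 (SE, adjusted p = 6.09e-10) and 1.48 ± 0.13 (SE, adjusted p = 8.16e-10) and their difference 0.53 ± 0.22 (SE, adjusted p = 0.999). In the inflammasome and IL-1 family 7 of 11 genes rose and 0 fell with each cytokine, among them Casp4, the caspase that senses cytosolic lipopolysaccharide (1.11 with IL-10 and 1.11 with IL-6). Ccl4 (1.18 with IL-10 and 1.19 with IL-6) and Cd40 (1.27 with IL-10 and 1.1 with IL-6), a chemokine and a costimulatory receptor, rose with both as well.

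Chemokines that attract monocytes followed the same course. Of 13 chemokine genes tested 7 rose and 0 fell with IL-10, and 8 rose and 1 fell with IL-6, led by Ccl12 (3.56 with IL-10 and 3.26 with IL-6) and Ccl8 (3.23 with IL-10 and 2.83 with IL-6), both ligands of monocyte receptors. Their levels in controls were under the median of all values. The receptor gene Ccr1 rose (1.88 with IL-10 and 1.67 with IL-6) and Cx3cr1, the fractalkine receptor, fell (-1.39 with IL-10 and -1.11 with IL-6).

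Fc receptors, through which macrophages take up antibody-coated particles, rose with both. Of 8 Fc receptor genes 7 rose and 0 fell with each cytokine (medians 1.06 and 1.12), among them Fcgr4 (1.69 with IL-10 and 1.53 with IL-6), Fcgr2b, the inhibitory receptor for IgG (1.61 with IL-10 and 1.48 with IL-6), Fcgr1 (1.35 with IL-10 and 1.43 with IL-6) and the receptor-like gene Fcrls (2.19 with IL-10 and 1.89 with IL-6). Scavenger receptors, which take up modified particles, were mixed: of 11 tested 4 rose and 2 fell with IL-10, and 6 rose and 2 fell with IL-6, with medians of 0.18 and 0.27. Cd36, a receptor for oxidised lipoproteins (-0.47 with IL-10 and -0.32 with IL-6), and Cd68, a protein of late endosomes (-0.12 with IL-10 and -0.13 with IL-6), were the 2 that fell with both, Cd36 being named after its values were seen. The IL-10 call of Cd68 was lost without IL-10 replicate 2 or 3 or unstimulated replicate 7 (limma adjusted p from 0.0851 to 0.242). The mannose receptor Mrc1 rose by 1.72 with IL-10 and 1.58 with IL-6 and Msr1, the class A scavenger receptor, by 0.89 with IL-10 and 0.89 with IL-6. Cd5l, a secreted scavenger-receptor protein of macrophages, rose by 1.8 ± 0.1 (SE, adjusted p = 6.95e-14) with IL-10 and 2.17 ± 0.07 (SE, adjusted p = 3.63e-18) with IL-6. In Cd5l the changes of the IL-10 and IL-6 arrays did not overlap, as in 6.89% of all genes tested, but the difference of -0.37 ± 0.12 (SE, adjusted p = 0.935) was not called. The controls of IL-10 were higher in Cd5l than those of IL-6, by 0.66. For the uptake of apoptotic cells through TAM receptors, the genes of the bridging ligands Pros1 (1.21 with IL-10 and 1.06 with IL-6) and Gas6 (0.93 with IL-10 and 0.99 with IL-6) rose and that of the receptor Axl fell (-1.4 with IL-10 and -1.19 with IL-6).

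Genes of cholesterol synthesis and of the endoplasmic reticulum rose in a broad but shallow way. Of 19 cholesterol synthesis genes tested, 17 rose with IL-10 and 19 with IL-6, with medians of 0.36 and 0.50. In 16 of the 19 the IL-10 effect was below the IL-6 effect, against 53.2% of all genes, and 0 were called in the difference. Pmvk (0.93 with IL-10 and 0.86 with IL-6), Fdps (0.78 with IL-10 and 0.9 with IL-6) and Mvd (0.67 with IL-10 and 0.76 with IL-6), enzymes of the mevalonate pathway, had the largest shared increases of the list. Of 45 chaperone genes of the IRE1-XBP1 and ATF6 branches of the unfolded protein response 29 rose and 0 fell with IL-10, and 37 rose and 1 fell with IL-6, with medians of 0.22 and 0.24. The secreted ER stress protein Manf rose by 0.73 with IL-10 and 0.71 with IL-6.

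Genes that fell were shared too. Nptx1, which encodes a secreted pentraxin, had the largest negative effects among the named genes, with stimulated arrays so low that their size is uncertain. Nptx1 had log2 levels of 6.38, 5.44 and 5.83 with IL-10, against 9.22, 9.3 and 9.49 in unstimulated replicates 6 to 8. Levels in the IL-6 set were 4.95, 4.76, 4.9, 4.11 and 4.38 with IL-6, against 8.1, 8.5, 8.28, 7.95 and 8.58 in unstimulated replicates 1 to 5. The stimulated arrays were all under the median of all values and their controls all above it. The effects were -3.45 ± 0.23 (SE, adjusted p = 4.62e-12) and -3.66 ± 0.18 (SE, adjusted p = 4.18e-15), although the levels differed between sets in controls as well (by 1.05, adjusted p = 0.000706). Cav1, the caveolin gene (-1.95 with IL-10 and -1.66 with IL-6), and Hpgd, the enzyme that inactivates prostaglandins (-1.6 with IL-10 and -1.38 with IL-6), fell with both. So did Clec7a, the beta-glucan receptor dectin-1 (-1.24 with IL-10 and -1.17 with IL-6), and Egr2, an immediate-early transcription factor (-1.36 with IL-10 and -1.17 with IL-6).

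Cell cycle genes fell with both, and with IL-10 the size and the count depended on single arrays. Of 47 genes of DNA replication and cell division 33 fell with IL-10 and 30 with IL-6, 27 with both, and 0 rose, with medians of -0.42 and -0.33. The score of the list on an array, the median over its genes of the level minus the mean of the set's controls, was -0.03, -0.65 and -0.63 in IL-10 replicates 1, 2 and 3, and -0.30, -0.39, -0.23, -0.28 and -0.36 in IL-6 replicates 1 to 5. Replicate 1 of IL-10 thus lay among the controls, whose scores ran from -0.07 to 0.09 for replicates 6 to 8 and from -0.13 to 0.14 for replicates 1 to 5, and the other 2 IL-10 arrays below all IL-6 arrays. Without IL-10 replicate 1, 43 of the 47 genes fell with IL-10, the median effect was -0.62 and the median difference of effects -0.33, with still 0 genes called in the difference. The count also moved without other arrays: 14 of the 47 fell with IL-10 without IL-10 replicate 2, 20 without IL-10 replicate 3 and 21 without unstimulated replicate 7. Kif23, a motor protein of cell division, fell with both (-0.83 with IL-10 and -0.84 with IL-6). Fewer dividing cells and less RNA per cell cannot be told apart in RNA of whole cultures.

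**Figure D3:**
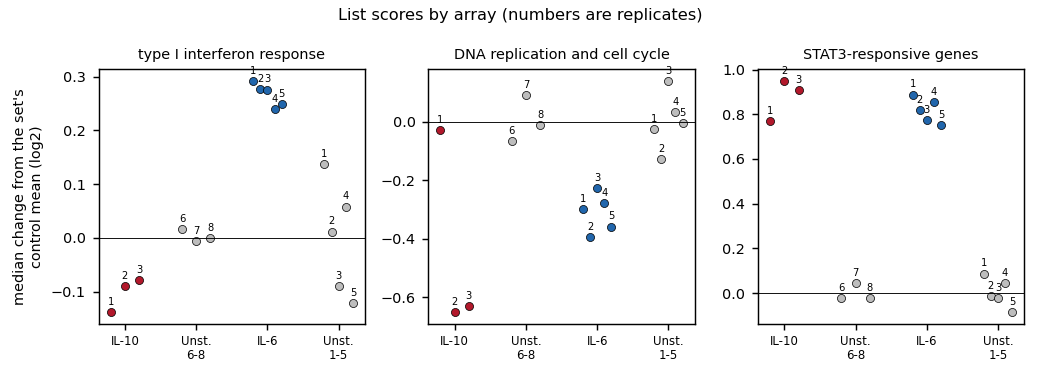
Scores of 3 gene lists on each array. A score is the median over the list's genes of the log2 level minus the mean of the same set's controls, points are arrays with their replicate number, and panels have their own scale. For interferon genes the 3 IL-10 arrays lie below 0 and the 5 IL-6 arrays above it, for cell cycle genes IL-10 replicate 1 lies apart from replicates 2 and 3, and for STAT3-responsive genes both cytokines lie between 0.75 and 0.95.

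The effects of the cytokines, each measured in its own set, parted in genes of the type I interferon response. That response is a program of antiviral genes that macrophages keep on at a low level and that the transcription factor complex ISGF3 drives. Of 26 such genes tested 3 rose and 5 fell with IL-10, and 16 rose and 1 fell with IL-6. The median effect was -0.13 with IL-10 and 0.26 with IL-6, and in 26 of 26 the IL-10 effect was below the IL-6 effect, against 53.2% of all genes tested. Other lists leaned the same way, with 44 of 47 cell cycle, 16 of 18 matrix protease and 14 of 17 glycolysis genes below, but 0 genes of these lists were called in the difference. In the difference of effects 6 of the 26 were called, all lower with IL-10, against 7 of 7154 genes (0.0978%) in all, and 18 had an unadjusted p under 0.05. The genes Ifit1, Ifit3, Rsad2, Cxcl10, Cmpk2 and Oasl2 of the list and Ddx60 outside it were called. The list was chosen knowing earlier results of these arrays, and interferon genes share their regulation, so the 26 are not independent of each other. The list score was -0.14, -0.09 and -0.08 in the 3 IL-10 arrays and -0.01 to 0.02 in its controls, and 0.29, 0.28, 0.28, 0.24 and 0.25 in the 5 IL-6 arrays and -0.12 to 0.14 in its controls.

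Ifit1, an antiviral protein that binds viral RNA ends, had a different course with each cytokine. Ifit1 had log2 levels of 7.89, 8.26 and 8.25 with IL-10, against 8.38, 8.23 and 8.39 in unstimulated replicates 6 to 8. Its levels came to 9.05, 8.88, 8.81, 8.83 and 8.7 with IL-6, against 8.29, 8.11, 7.91, 8.26 and 7.89 in unstimulated replicates 1 to 5. With IL-10, replicate 1 was below its controls and replicates 2 and 3 lay within their range, while with IL-6 all 5 arrays were above all 5 controls. The effects were -0.2 ± 0.13 (SE, adjusted p = 0.276) and 0.76 ± 0.1 (SE, adjusted p = 9.14e-07), and the difference was -0.96 ± 0.17 (SE, adjusted p = 0.0106). Ifit3, of the same family, was called lower with IL-10 and was not called with IL-6. Ifit3 had log2 levels of 7.94, 8.24 and 8.14 with IL-10, against 9.0, 8.92 and 8.99 in unstimulated replicates 6 to 8. The IL-6 set had 9.01, 9.04, 8.86, 8.77 and 8.7 with IL-6, against 8.98, 8.82, 8.5, 8.83 and 8.46 in unstimulated replicates 1 to 5. With IL-10 every array was below every control, and with IL-6 the groups overlapped. The IL-10 effect was -0.86 ± 0.16 (SE, adjusted p = 0.000116), the IL-6 effect 0.16 ± 0.12 (SE, adjusted p = 0.345), not called, and the difference -1.02 ± 0.2 (SE, adjusted p = 0.0288).

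Rsad2, the antiviral enzyme viperin, resembled Ifit1. Rsad2 had log2 levels of 9.3, 9.47 and 9.44 with IL-10, against 9.56, 9.62 and 9.65 in unstimulated replicates 6 to 8. In the IL-6 set they were 10.12, 10.17, 10.0, 10.01 and 10.17 with IL-6, against 9.6, 9.7, 9.18, 9.61 and 9.2 in unstimulated replicates 1 to 5. The IL-10 arrays were all below their controls by a small step that was not called, and the IL-6 arrays all above theirs. Such a lack of overlap was common, with 33.9% of all genes tested in the IL-10 set and 28.2% in the IL-6 set. The effects were -0.21 ± 0.12 (SE, adjusted p = 0.186) and 0.64 ± 0.09 (SE, adjusted p = 2.05e-06), and the difference -0.85 ± 0.15 (SE, adjusted p = 0.0106). Cxcl10, a chemokine that draws in T cells, rose with both but less with IL-10. Cxcl10 had log2 levels of 7.84, 7.8 and 8.07 with IL-10, against 7.52, 7.72 and 7.47 in unstimulated replicates 6 to 8. Levels in the IL-6 set were 8.24, 8.19, 8.43, 8.3 and 8.15 with IL-6, against 7.36, 7.16, 6.77, 7.06 and 6.68 in unstimulated replicates 1 to 5. The groups did not overlap in either set. The effects were 0.33 ± 0.12 (SE, adjusted p = 0.0421) and 1.26 ± 0.1 (SE, adjusted p = 3.13e-11), and the difference -0.92 ± 0.16 (SE, adjusted p = 0.0106). The small IL-10 effect of Cxcl10 was no longer called without IL-10 replicate 3 or unstimulated replicate 6 or 8 (limma adjusted p from 0.113 to 0.184). Its controls also differed, by 0.56 higher in replicates 6 to 8 (adjusted p = 0.000698), the one of the 7 genes where they did.

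Cmpk2, a mitochondrial nucleotide kinase whose gene adjoins Rsad2, moved in opposite directions. Cmpk2 had log2 levels of 7.23, 7.31 and 7.42 with IL-10, against 8.09, 7.6 and 7.8 in unstimulated replicates 6 to 8. Its levels came to 7.86, 7.91, 7.91, 7.94 and 8.17 with IL-6, against 7.87, 7.65, 7.57, 7.76 and 7.47 in unstimulated replicates 1 to 5. The IL-10 arrays were all below their controls, and of the IL-6 arrays 4 were above all their controls and the other one just under the highest control. The effects were -0.51 ± 0.12 (SE, adjusted p = 0.00205) and 0.29 ± 0.09 (SE, adjusted p = 0.0177), and the difference -0.8 ± 0.15 (SE, adjusted p = 0.0288). The IL-6 effect of Cmpk2 was no longer called without IL-6 replicate 5 or without unstimulated replicate 5 (limma adjusted p of 0.0639 and 0.0591), so the opposite calls rest on those arrays. Oasl2, a protein of the oligoadenylate synthetase family, was also called lower with IL-10 and not called with IL-6. Oasl2 had log2 levels of 8.48, 8.63 and 8.72 with IL-10, against 9.36, 9.33 and 9.35 in unstimulated replicates 6 to 8. The IL-6 set had 9.49, 9.44, 9.39, 9.34 and 9.36 with IL-6, against 9.53, 9.43, 9.26, 9.59 and 9.38 in unstimulated replicates 1 to 5. The IL-10 arrays were apart from their controls, and the IL-6 arrays lay inside the range of theirs. The effects were -0.74 ± 0.11 (SE, adjusted p = 4.69e-06) and -0.04 ± 0.08 (SE, adjusted p = 0.786), and the difference -0.7 ± 0.14 (SE, adjusted p = 0.0288).

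Ddx60, a helicase of the antiviral RNA-sensing pathway, was the call outside the list. Ddx60 had log2 levels of 7.06, 6.98 and 7.03 with IL-10, against 7.25, 7.04 and 7.45 in unstimulated replicates 6 to 8. In the IL-6 set they were 7.79, 7.61, 7.84, 7.59 and 7.75 with IL-6, against 7.4, 7.48, 7.14, 7.41 and 7.19 in unstimulated replicates 1 to 5. The levels with IL-10 were close to the median of all values (6.99). The IL-10 arrays overlapped with their lowest control, and the IL-6 arrays were all above their controls. Without unstimulated replicate 7, that lowest control, Ddx60 was called lower with IL-10 (limma adjusted p = 0.0178). The effects were -0.22 ± 0.1 (SE, adjusted p = 0.0907) and 0.39 ± 0.08 (SE, adjusted p = 0.000142), and the difference -0.61 ± 0.12 (SE, adjusted p = 0.033).

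**Figure D4:**
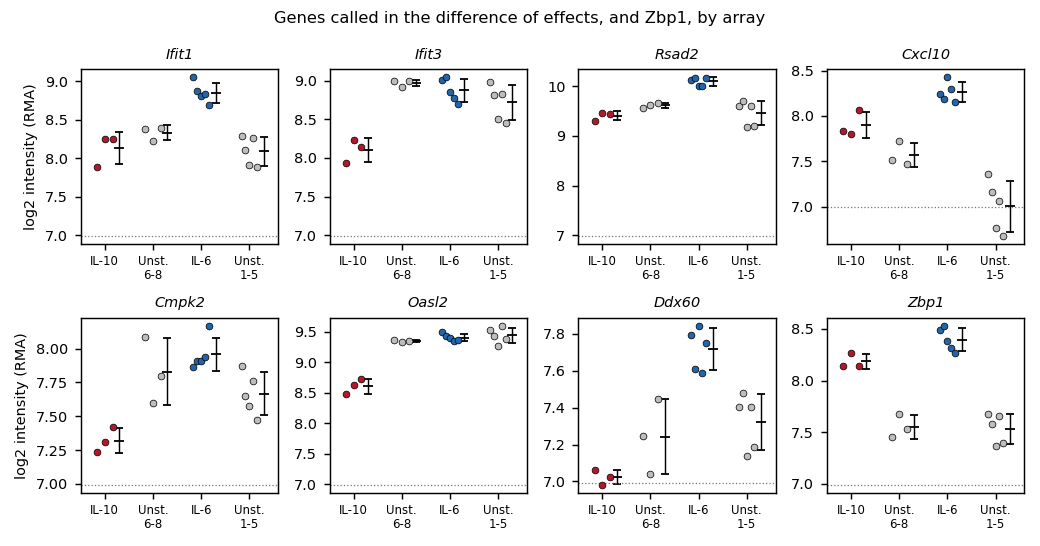
Levels of the 7 genes called in the difference of effects, and of Zbp1, an interferon gene that rose with both. Each point is 1 array, the vertical axis is the log2 intensity, bars are the mean ± SD (n = 3 for IL-10 and unstimulated replicates 6 to 8, n = 5 for IL-6 and unstimulated replicates 1 to 5), and the dotted line is the median of all values. In the 7 genes the red IL-10 points lie lower against their own controls than the blue IL-6 points do against theirs.

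Not every interferon gene parted. Zbp1, a sensor of nucleic acids, rose by 0.63 with IL-10 and 0.86 with IL-6 and Ifi27l2a, a small interferon-induced protein, by 0.8 with IL-10 and 1.0 with IL-6, and their differences of -0.23 ± 0.15 (SE, adjusted p = 0.999) and -0.2 ± 0.09 (SE, adjusted p = 0.999) were not called. Oas3, an oligoadenylate synthetase, fell with both (-0.86 with IL-10 and -0.39 with IL-6) with a difference of -0.47 ± 0.12 (SE, adjusted p = 0.235). Ifit2, Mx1 and Usp18, named after their values were seen, had negative differences that were not called: Ifit2 -0.93 ± 0.25 (SE, adjusted p = 0.395), Mx1 -0.75 ± 0.18 (SE, adjusted p = 0.174) and Usp18, the protease that removes ISG15, -0.52 ± 0.19 (SE, adjusted p = 0.999). The difference of effects of Mx1 was called, in the direction lower with IL-10, with the replicate number as a fixed block (limma adjusted p = 0.00867). It was also called with the number as a random block (limma adjusted p = 0.0294). Of 16 guanylate-binding and other genes of the interferon-gamma type tested 5 rose and 0 fell with IL-10, and 7 rose and 0 fell with IL-6, with medians of 0.09 and 0.22 and 0 called in the difference. In 13 of the 16 the IL-10 effect was below the IL-6 effect, and 4 had an unadjusted p under 0.05 in the difference, each lower with IL-10. The list score was -0.11, 0.16 and 0.17 in IL-10 replicates 1, 2 and 3 and 0.01 in each of its controls, and 0.07 to 0.31 in the IL-6 arrays and -0.17 to 0.17 in its controls. Without IL-10 replicate 1 the median IL-10 effect was 0.20 and 4 genes rose, 3 rose without IL-10 replicate 3 or unstimulated replicate 6 or 7, and 1 rose without IL-10 replicate 2 or unstimulated replicate 8. Irf1, a transcription factor of that response, rose by 0.36 with IL-10 and 0.37 with IL-6, the IL-10 call being lost without IL-10 replicate 2 or 3 or unstimulated replicate 7 or 8 (limma adjusted p from 0.0582 to 0.139). Class I presentation genes, often raised by interferon, had 4 of 14 higher with each cytokine, with 0 lower with IL-10 and 2 lower with IL-6, and class II genes had 0 of 7 called with either.

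ISGF3 and related factors bind DNA at interferon-stimulated response elements, which hold a repeat of the form GAAANNGAAA. This form was searched on both strands after the values were seen, so its reverse, TTTCNNTTTC, counts as a match too. Of the 5917 genes with a RefSeq promoter 4.11% held a match (3.34% of the promoters), and of the 7 genes called in the difference 5 did, Cxcl10, Ddx60, Ifit1, Ifit3 and Rsad2, while TTCNNNGAA was in 0 of the 7 but in 5 of the 18 interferon-list genes with a promoter (27.8%). Genes higher with both cytokines held GAAANNGAAA at 4.27%, and 11 of the 18 interferon-list genes with a promoter did. The stretches that hold it follow for these 5 genes, from GRCm38.p6, read 5′ to 3′ along the gene's strand with the matches in capitals: Cxcl10 from chr5:92349063-92349132, minus strand, Ddx60 from chr8:61928004-61928086, plus strand, Ifit1 from chr19:34640755-34640843, plus strand, Ifit3 from chr19:34583343-34583446, plus strand and Rsad2 from chr12:26456533-26456602, minus strand. Ddx60, Ifit1 and Ifit3 hold 2 matches each. No match in a window of this length says only that the letters are not there.
Cxcl10: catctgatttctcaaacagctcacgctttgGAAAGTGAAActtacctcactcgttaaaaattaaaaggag
Ddx60: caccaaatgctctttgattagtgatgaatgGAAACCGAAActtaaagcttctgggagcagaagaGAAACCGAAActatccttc
Ifit1: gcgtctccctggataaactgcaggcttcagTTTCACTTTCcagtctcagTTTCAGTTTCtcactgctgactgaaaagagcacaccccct
Ifit3: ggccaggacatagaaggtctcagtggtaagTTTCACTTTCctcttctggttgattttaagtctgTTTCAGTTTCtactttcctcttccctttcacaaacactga
Rsad2: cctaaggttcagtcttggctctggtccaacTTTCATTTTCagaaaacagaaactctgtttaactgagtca

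The calls in the difference rest on few arrays. Without IL-10 replicate 1 the differences of the 7 genes lay between -0.94 and -0.63 and 0 were called (limma adjusted p from 0.0760 to 0.111). Without 1 other array the count fell to 1 (unstimulated replicate 8), 2 (unstimulated replicate 6 or IL-10 replicate 2), 3 (IL-6 replicate 3, or unstimulated replicate 3 or 5) or 4 (IL-6 replicate 1). All 7 differences were negative under each alternative that gave a value for the gene (26, or 27 for Oasl2 and Rsad2), but their size and calls moved. The difference of Cxcl10 was -0.36 with all 8 unstimulated arrays as controls of both, that of Cmpk2 -0.42 with probe sets of a gene averaged, and Ddx60 was called in 12 and Cmpk2 in 13 of 26 alternatives. With the replicate number of the first set as a fixed block 11 genes were called, 9 lower and 2 higher with IL-10, the higher ones being Dusp2 and Rhoh. With replicate numbers within a set as a random block 9 genes were called, the 7 and Mx1 and Acod1.

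**Figure D5:**
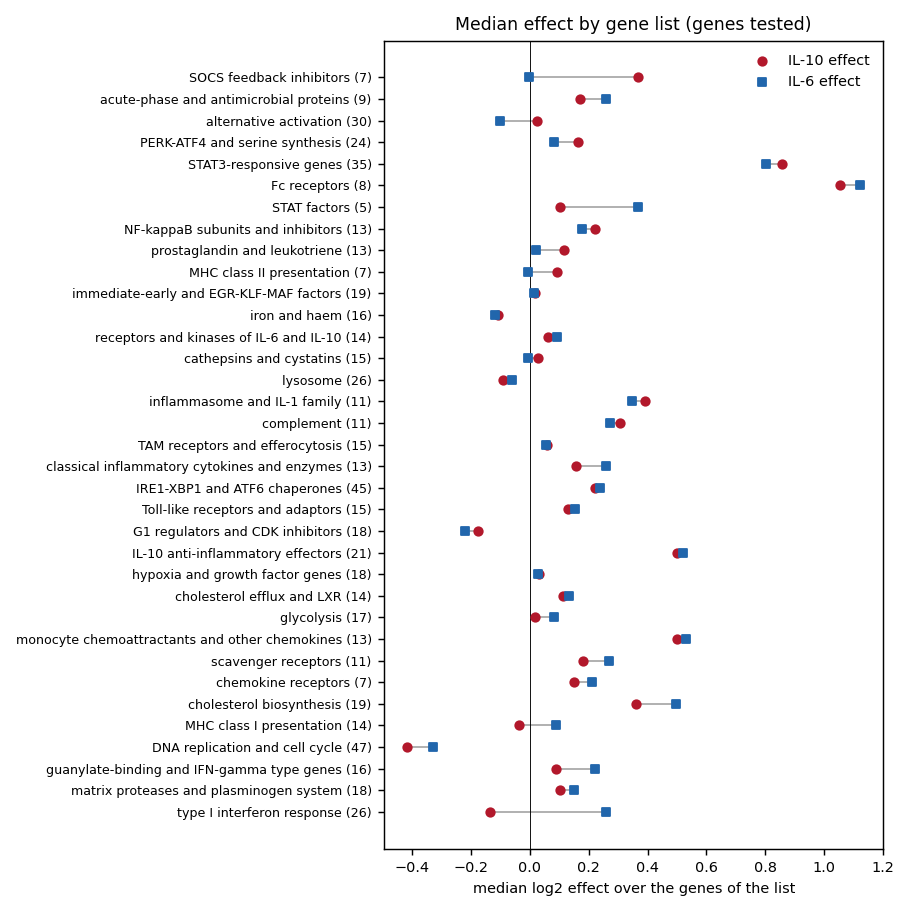
Median effect of each cytokine over the genes of 35 lists. The horizontal axis is the median log2 effect, circles are the IL-10 effect, squares the IL-6 effect, numbers in brackets the genes tested, and lists are ordered by the median difference of effects. In most lists the 2 marks lie close together, and the interferon list at the foot has them on opposite sides of 0, at -0.13 and 0.26.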

How the data were processed

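Total RNA of bone marrow-derived macrophages was labelled with biotin and hybridised to Affymetrix 3' arrays with 22690 probe sets. Per the submitters' processing notes, the authors used RMA, and the deposited value of a probe set is its log2 intensity after RMA's background correction and quantile normalization. RMA can understate effects of low signals, which was not tested here. GCOS 1.4 is named without a role, and the version of RMA and the arrays it normalized as 1 batch are not given in the sources used here. Nothing further was done to the values.

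Of the probe sets, 20393 had exactly 1 gene in the supplied annotation, 691 had several and 1606 none, and these were not used. The probe set with the highest mean stood for its gene. All 29 arrays in 7 groups were fitted with limma 3.58.1 in R 4.3.3 (moderated two-sided tests, 22 residual degrees of freedom, Benjamini-Hochberg over 7154 genes), and the 3 contrasts were the IL-10 effect, the IL-6 effect and their difference. The arrays with IL-4, alone or combined, entered no contrast. They did enter the estimate of spread, the median of all values, the filter and the choice of probe set. The fit was checked on simulated data. The number of arrays limits the precision.

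The members and gene lists were chosen with earlier results of these data known. Genes were named by a rule: the 10 higher and 8 lower genes with the largest shared effect, up to 10 genes in each direction called in the difference, up to 4 called in the difference and up to 3 shared genes from each of 35 pathway and 8 cell type lists, and 14 named throughout, of which 2 are not analysed here. Not every such gene is printed. Dusp2, Ifit2, Mx1, Usp18, Socs1, Socs2, Socs5, Socs6, Rhoh, Cd36 and Acod1 fall outside it.

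Replicate numbers pair the arrays of the first set: deviations of same-numbered IL-6 and unstimulated arrays from their group means correlated at 0.527 to 0.694, so the numbers may mark shared cultures. The labels give IL-10 and unstimulated replicates 6 to 8 no number in common. Promoter sequences are RefSeq's for GRCm38.p6. Alternatives were other normalization, filters, probe set rules, weights, controls, thresholds, replicate blocks and leaving out each array; those without IL-10 replicate 1 for 3 lists were added after the data were seen.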

Additional observations from a re-analysis of the deposited data

Results flagged for a closer look

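In groups of 5 arrays, a value was marked when its gap to the nearest other array, divided by the range of the group, was above Dixon's critical value (gap over range above 0.71). Groups of 3 arrays, IL-10 and its controls among them, are too small for this. Of 148 groups of values 12 were marked, and chance marks about 1 in 20 groups.

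IL-6 replicate 5 was the marked array in 9 of the 12. It was the highest of its group for Gja1, at 10.536 against 9.90 to 9.92 in the other 4 arrays, for Il4ra (11.044 against 10.65 to 10.77), Fgl2 (11.37 against 10.94 to 11.02) and Ccl4 (10.618 against 10.12 to 10.25). It was also the highest for Manf (11.812 against 11.63 to 11.67) and for Cmpk2 (8.1658 against 7.86 to 7.94). It was the lowest for Clec7a (11.973 against 12.33 to 12.39), Blnk (12.005 against 12.17 to 12.20) and Socs2 (5.3921 against 5.84 to 6.00). Without IL-6 replicate 5 the differences of effects of Cmpk2 and Ddx60 were no longer called, while those of Cxcl10, Ifit1, Ifit3, Oasl2 and Rsad2 were.

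The other 3 marks were Il10rb in IL-6 replicate 1 (12.257 against 12.22 to 12.23), Fdps in unstimulated replicate 2 (9.636 against 9.97 to 10.08) and Il4ra in unstimulated replicate 5 (7.5389 against 7.98 to 8.10).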

How the results depend on the processing

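The counts of genes higher (770) and lower (936) with both cytokines stayed within 1.5 times of these values except under the last 2 settings below, while the 7 calls in the difference of effects, each lower with IL-10, depended on the setting. The difference counted 3 genes with no filter on low levels, 2 with a filter at the 75th percentile, 16 with array weights (4 higher and 12 lower with IL-10), 11 with the replicate number of the first set as a fixed replicate block (2 higher and 9 lower) and 9 with the number within each set as a random replicate block, 0 at an adjusted p under 0.01 (limma), and 1 (Ifit3) with an absolute log2 value of at least 1 required. Leaving out 1 array at a time gave 0 to 8 genes, 0 without IL-10 replicate 1 and 8 without unstimulated replicate 1. Without IL-10 replicate 1 the interferon list had 0 genes called in the difference instead of 6. With all 8 unstimulated arrays as controls of both cytokines the difference counted 850 genes, 448 higher and 402 lower with IL-10, 6 of the 7 among them; the 2 sets of controls differ from each other. The blocks moved no other count of genes by over 1.5 times. The last 2 settings moved the counts of either effect. With every probe set tested by itself, 3208 probe sets were called with IL-10, 3965 with IL-6, 1226 higher with both and 1449 lower with both. At an absolute log2 value of at least 1 these counts were 119, 115, 70 and 26 genes. Of the values of single genes under the alternatives, 110 kept their direction but were no longer called, and 45 kept it and became called. A turn of direction was counted only for values called in the main fit or the alternative, and 0 did so. The other 5539 kept their side of the threshold, and uncalled values among them may have turned direction. Signals near background limit what can be said of genes with a group under the median of all values, such as Gja1, Ccl8, Ccl12 and Nptx1, and 3 IL-10 arrays limit the rest.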
